A study of Homo sapiens with 6 samples.

Results

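Transfer RNA (tRNA) repeat names were followed in HEK293T, a human embryonic kidney line, after an antisense oligonucleotide (ASO) against U7 small nuclear RNA. The members are all repeat names that start with tRNA-. They numbered 56 of the 5230 repeat names in the count tables and 296 of the 433837 listed loci. Every listed locus had a read in some library of this series, so numbers of listed loci are not numbers of annotated copies. The cells were wild type, and each library came from cells transfected with a chemically modified chimeric ASO at 100 nM. In 3 libraries the target was U7 small nuclear RNA (labelled U7 snRNA knockdown), and in the other 3 it was GFP, the control ASO. Total RNA was depleted of ribosomal RNA before the libraries were made. The study was set up to look for functions of U7 small nuclear RNA beyond histone messenger RNA processing, its textbook role, and the comparison here reads that contrast in tRNA loci. The design text calls the 3 libraries of a group biological replicates, and no source used here gives the time after transfection.

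Transfer RNAs carry amino acids to the ribosome, where the anticodon of each reads a codon of the messenger RNA. Their genes occur in many near-identical copies, often in clusters, and are transcribed by RNA polymerase III from promoter boxes inside the gene. Mature tRNAs are short, folded and rich in modified bases that stop reverse transcriptase, so standard RNA libraries capture them poorly. Each name gives the amino acid and, in 53 of the 56 names, a triplet of bases. In all 53 the triplet was a codon of that amino acid in the standard genetic code (Y standing for C or T), and in 0 of the 53 was its reverse complement one. The triplets are therefore given below as codons. The remaining 3 names were tRNA-Met, tRNA-Met_ and tRNA-Met-i, the last with the suffix of the initiator that starts translation. The tables hold no coordinates and no sequence for a locus, so none is printed.

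The libraries held 1926892 to 2025985 reads in listed loci in the control group and 2089822 to 2819540 in the U7 ASO group. U7 itself, with 16 listed loci, had 10, 6 and 12 reads under the control ASO and 10, 4 and 6 under the U7 ASO, too few to check the labels. Of the tRNA counts above 0, 74.5% to 83.0% were even in a library, so counted reads were not independent molecules. The exact intervals of the tRNA share given below treat them as independent and are too narrow even for counting error. The 2 groups also differed in 7SK, the name with the most reads, which took 19.8% to 21.6% of the reads under the control ASO and 16.5% to 19.5% under the U7 ASO.

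Reads in tRNA loci made up a larger share of the library under the U7 ASO. The control libraries held 1525, 1615 and 1944 tRNA reads and the U7 ASO libraries 2457, 2963 and 3129. As a share of all reads in listed loci this was 0.0753%, 0.0838% and 0.0981% under the control ASO and 0.118%, 0.126% and 0.111% under the U7 ASO. The 3 U7 ASO libraries lay above the 3 controls without overlap. The exact (Clopper-Pearson) 95% intervals reached at most 0.103% under the control ASO and started at 0.107% or higher under the U7 ASO. These intervals treat reads as independent and hold no spread between libraries, so their gap is no measure of the group difference. The mean share was 0.0857% ± 0.0116 under the control ASO and 0.118% ± 0.00760 under the U7 ASO (SD, n = 3 each), a ratio of 1.38. In CPM (reads relative to the library total, scaled with edgeR's TMM factors) the sum was 874 ± 60.9 and 1162 ± 52.7, a ratio of 1.33. Of the reads outside 7SK the share was 0.0939%, 0.105% and 0.125% under the control ASO and 0.141%, 0.157% and 0.138% under the U7 ASO, also without overlap. No p-value is given for these sums, since the names were chosen with results of these data known. With bulk RNA, more tRNA transcript per cell and less of the other counted RNA cannot be told apart.

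**Figure D1:**
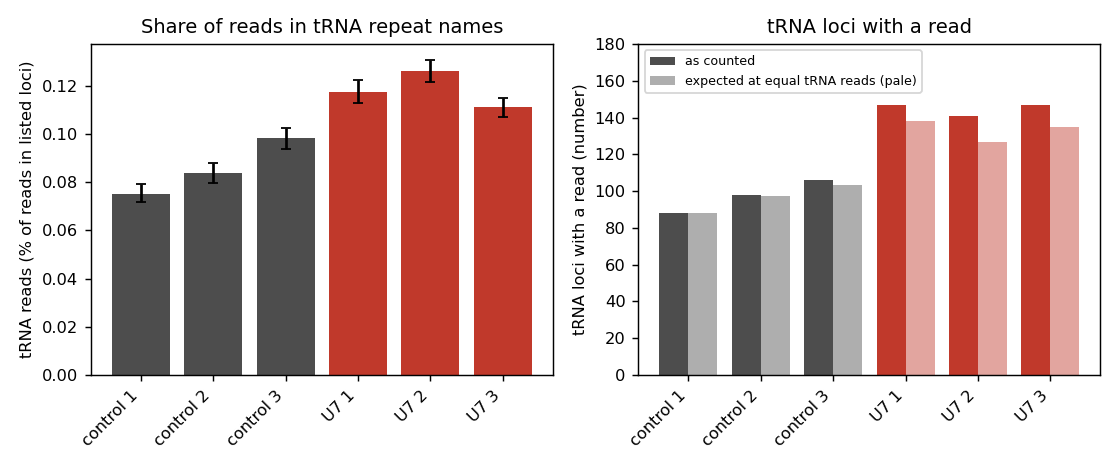
Left, reads in tRNA repeat names as a percent of all reads in listed loci, 1 bar per library (grey, control ASO; red, U7 ASO), with exact 95% intervals; the controls reach 0.0981% and the U7 ASO libraries start at 0.111%. Right, the number of tRNA loci with a read, as counted (full colour) and the number expected when each library is reduced to 1525 tRNA reads (pale); the U7 ASO libraries are higher in either count.

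Reads were also counted at more tRNA loci. In the controls 88, 98 and 106 of the 296 loci had a read, and under the U7 ASO 147, 141 and 147. The 296 are the tRNA loci with a read in any of these libraries, so the list itself depends on both groups. The U7 ASO libraries hold more tRNA reads, which by itself raises this number. Reduced to 1525 tRNA reads, that of the library with the fewest, the expected numbers were 88.0, 97.5 and 103 under the control ASO and 138, 127 and 135 under the U7 ASO. The groups remained apart at equal reads, and the difference between their means went from 47.7 to 36.8 loci. For all listed loci, reduced to the 1926892 reads of the smallest library, the expected numbers were 95976, 120658 and 108734 under the control ASO. Under the U7 ASO they were 117099, 156595 and 149815, so that U7 ASO replicate 1 lay below control replicate 2. On average, reads thus lay at more loci of the whole table as well. As counted, with the difference in reads still included, the ratio of the group means was 1.49 for tRNA loci and 1.34 for all listed loci. At equal tRNA reads it was 1.38 for tRNA loci, and no such ratio was computed for all listed loci. A read was seen only in U7 ASO libraries at 117 tRNA loci (39.5%) and only in controls at 49 (16.6%). Among all listed loci these shares were 45.7% and 26.8%. The 117 loci were thin, with at most 36 reads over the 3 libraries, and took 12.7%, 6.92% and 10.6% of the tRNA reads of the U7 ASO libraries. At the 130 tRNA loci with reads in both groups the share of library reads was 0.0709%, 0.0806% and 0.0907% under the control ASO and 0.103%, 0.117% and 0.0992% under the U7 ASO, again without overlap.

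Few names held most of the tRNA reads. The codons TTA of leucine, ATT of isoleucine and AAC of asparagine led, and their names held 52.0% of the 13633 tRNA reads. A single locus, tRNA-Leu-TTA_1899657, held 26.4%, and the 10 loci with the most reads held 59.4%. At the other end 25 names, with 4.72% of the reads together, were too thin for the count filter. The filter left 31 names and 32 loci to be tested. Changes in single names were then tested with edgeR's quasi-likelihood test on all 2236 repeat names that passed, with Benjamini-Hochberg adjustment over all of them.

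Of the 31 tested tRNA names, 1 rose and 0 fell. Over all tested repeat names 1.52% rose and 1.03% fell. The unadjusted p was under 0.05 for 6 of the 31 names, against 14.6% of all names. The 95% interval of the log2 fold change comes from the same test and adds only the direction. It lay above 0 in those 6, against 6.93% of all names. The log2 fold change was above 0 for 26 of the 31 and below 0 for 5, and its median was 0.70. Over all tested repeat names it was above 0 for 49.4%, with a median of −0.01. With a library left out the filter was run again, so the set of tested tRNA names changed. The median was 0.36 over 37 tested tRNA names without control replicate 1 and 0.44 over 38 without U7 ASO replicate 3. The filter admits a thin name more readily through the group where it is high, so these counts describe tested names only. Over all 56 names the mean CPM was higher under the U7 ASO in 45 and lower in 11. A name read in a single group falls on that side by construction, and the share over all repeat names was not computed. Without a count filter the median log2 fold change was 0.78 over the 56 tRNA names and 0.065 over all 5230 names. In 8 tested names the U7 ASO libraries were all above the controls, against 9.93% of all names, and in 2 they were all below, against 10.2%.

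**Figure D2:**
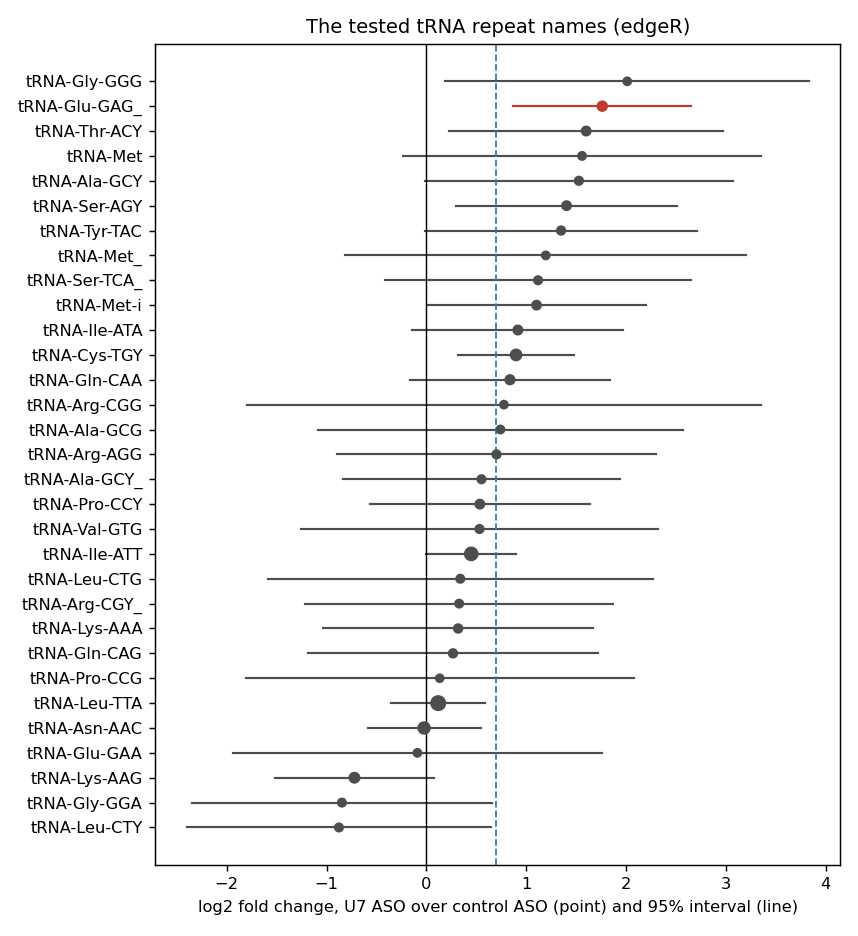
Log2 fold change of the 31 tested tRNA repeat names, U7 ASO over control ASO (points, larger with higher mean CPM), with 95% intervals (lines). Red marks tRNA-Glu-GAG_, the name that passed the adjusted threshold, the black line is 0 and the dashed line is the median of the 31 names, 0.70.

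Glutamate held the name that rose. tRNA-Glu-GAG_ had 18, 34 and 28 reads under the control ASO and 148, 81 and 107 under the U7 ASO. The lowest U7 ASO library was far above the highest control, and U7 ASO replicate 1 was highest. Its level went from 13.8 ± 4.31 to 47.0 ± 19.7 CPM (n = 3 each). The log2 fold change was 1.76 with a 95% interval of 0.87 to 2.65 (SE 0.42, edgeR adjusted p = 0.0236). The call was lost without control replicate 1 (adjusted p = 0.0990), U7 ASO replicate 1 (0.0927) or U7 ASO replicate 3 (0.0677). The rise lay in 1 of the name's 5 listed loci. tRNA-Glu-GAG__dup1_463974 held 98.8% of its reads and all 80 control reads, and the other 4 loci held 0, 3 and 2 reads under the U7 ASO.

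In the test of single loci this glutamate locus was 1 of 2 tRNA loci that rose, of 32 tested, and 0 fell. Of all tested loci 4.49% rose and 0.473% fell. The locus changed by 1.93 on the log2 scale, with a standard error of 0.44 (adjusted p = 0.0169). Its call was lost without control replicate 1 or 3 or any of the U7 ASO replicates, with adjusted p-values from 0.0513 to 0.196, and without a count filter (adjusted p = 0.402). The repeat loci nearest to it by running number held few reads or were not listed, and sequence outside repeat loci was not counted. No locus within 5 running numbers was listed, and the nearest listed one, an L1M5 copy 6 running numbers away, held 6 reads in a single library. The order of the running numbers along the genome is not stated in the files.

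The other glutamate name read differently. tRNA-Glu-GAA had 24, 4 and 11 reads under the control ASO and 5, 16 and 28 under the U7 ASO, groups that overlap (log2 fold change −0.09, 95% interval −1.94 to 1.76). The difference between the 2 glutamate names was not tested.

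Cysteine was the next name by p-value, and its reads lie in the largest set of loci of any tRNA name, 29. tRNA-Cys-TGY had 84, 97 and 96 reads under the control ASO and 175, 216 and 270 under the U7 ASO. The groups did not overlap and the spread within each was small. The level went from 47.8 ± 3.77 to 89.0 ± 6.90 CPM, a log2 fold change of 0.90 (SE 0.28, 95% interval 0.32 to 1.48). The name did not pass (adjusted p = 0.109), although it did with DESeq2 (adjusted p = 0.0396).

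One cysteine locus rose on its own. tRNA-Cys-TGY_dup31_2408272 had 6, 34 and 22 reads under the control ASO and 94, 113 and 116 under the U7 ASO. On the log2 scale this was 2.24, with a standard error of 0.53 (adjusted p = 0.0211). All 3 U7 ASO libraries lay above the controls, of which replicate 1 was lowest. The call was lost without control replicate 1 or 3 or any of the U7 ASO replicates (adjusted p from 0.0698 to 0.163) and without a count filter (adjusted p = 0.143). The other 28 cysteine loci together had 78, 63 and 74 reads under the control ASO and 81, 103 and 154 under the U7 ASO, or 37.1 and 45.1 CPM on average. The neighbouring copy by running number, tRNA-Cys-TGY_dup30_2408271, held 6, 0 and 4 reads under the control ASO and 0, 3 and 6 under the U7 ASO, and the 2 L2 copies listed within 5 running numbers held reads in U7 ASO replicate 3 only, 10 and 12. Near-identical copies could have exchanged reads in counting, so which copy the reads came from is uncertain. Without this copy the log2 fold change of tRNA-Cys-TGY was 0.29 (adjusted p = 0.759).

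**Figure D3:**
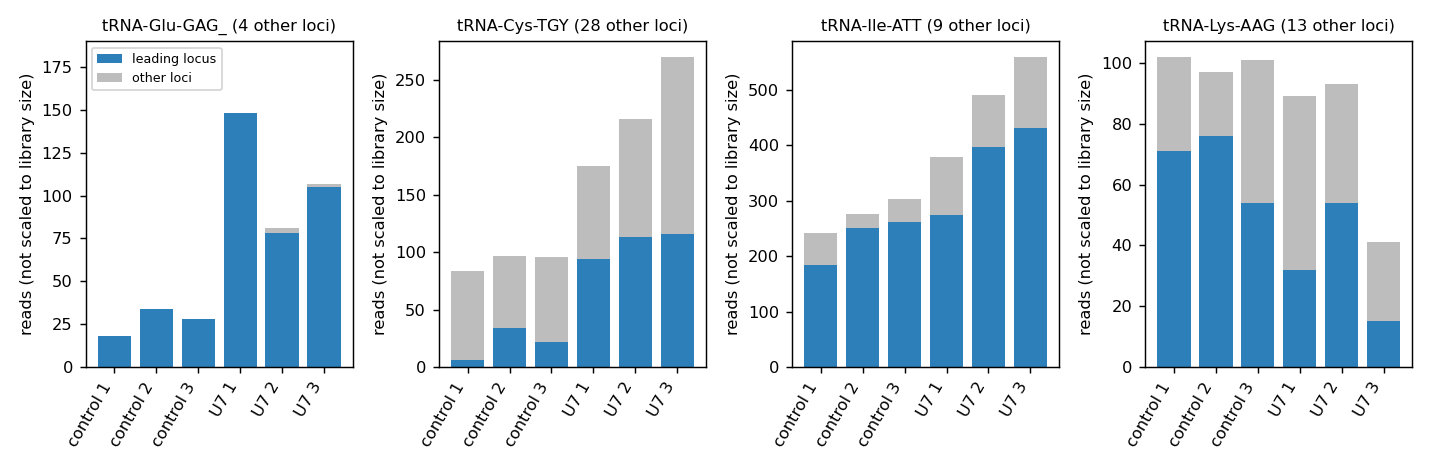
Reads per library at the locus with the most reads of a name (blue) and at its other loci (grey), for 4 tRNA names; reads are not scaled to library size. In tRNA-Glu-GAG_ nearly all reads lie at the leading locus, in tRNA-Cys-TGY the leading locus goes from 6 to 34 reads under the control ASO to 94 to 116 under the U7 ASO, and in tRNA-Lys-AAG it is lower in U7 ASO replicates 1 and 3.

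Isoleucine was the second most abundant amino acid. tRNA-Ile-ATT had 242, 277 and 304 reads under the control ASO and 380, 491 and 560 under the U7 ASO. The U7 ASO libraries lay above the controls also after scaling, at 142 ± 10.5 and 193 ± 12.7 CPM, but the name did not pass (log2 fold change 0.45, 95% interval −0.0028 to 0.90, adjusted p = 0.349). Its leading locus tRNA-Ile-ATT_dup13_1900708 had 185, 251 and 262 reads under the control ASO and 275, 398 and 431 under the U7 ASO. The other 9 loci had 57, 26 and 42 reads under the control ASO and 105, 93 and 129 under the U7 ASO, a step from 21.6 to 44.5 CPM on average. Without the leading locus the log2 fold change of the name was 1.05, and it did not pass either (adjusted p = 0.190). tRNA-Ile-ATA had 23, 41 and 19 reads under the control ASO and 91, 38 and 67 under the U7 ASO, groups that overlap (log2 fold change 0.92, adjusted p = 0.429).

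Leucine and asparagine, 2 of the 3 leading names, were near 0 on the log2 scale. tRNA-Leu-TTA had 451, 489 and 578 reads under the control ASO and 497, 927 and 660 under the U7 ASO. In CPM this was 261 ± 18.7 and 283 ± 84.8, with only U7 ASO replicate 2 above the controls (log2 fold change 0.12, 95% interval −0.35 to 0.59). tRNA-Asn-AAC had 185, 174 and 192 reads under the control ASO and 187, 301 and 194 under the U7 ASO, or 92.6 to 99.0 and 69.0 to 124 CPM (log2 fold change −0.02, 95% interval −0.59 to 0.54). Its sign depended on the scaling and was positive, at 0.039, with library totals alone. Its leading locus tRNA-Asn-AAC_dup18_252587 ranged from 42 to 174 reads over the U7 ASO libraries and from 91 to 120 over the controls. The 3 U7 ASO libraries thus varied more than the controls in either name.

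The more abundant lysine name stood on the other side. tRNA-Lys-AAG had 102, 97 and 101 reads under the control ASO and 89, 93 and 41 under the U7 ASO. After scaling the U7 ASO libraries were all below the controls, at 31.6 ± 14.8 against 51.8 ± 2.96 CPM, and the name did not pass (log2 fold change −0.72, 95% interval −1.52 to 0.08, adjusted p = 0.414). U7 ASO replicate 3 was lowest. Its leading locus tRNA-Lys-AAG_dup3_1848454 held 71, 76 and 54 reads under the control ASO and 32, 54 and 15 under the U7 ASO, while the other 13 loci averaged 16.8 and 17.4 CPM. tRNA-Gly-GGA was the other name with all U7 ASO libraries below the controls (11.2 ± 0.961 and 6.20 ± 2.82 CPM, adjusted p = 0.661). The other tested glycine name, tRNA-Gly-GGG, had the largest positive log2 fold change of the tested names, 2.01 (95% interval 0.19 to 3.83, adjusted p = 0.283), on 5, 6 and 3 reads under the control ASO and 28, 15 and 30 under the U7 ASO.

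The other names with large fold changes that did not pass were thin. tRNA-Thr-ACY had 4, 8 and 50 reads under the control ASO and 106, 51 and 66 under the U7 ASO (log2 fold change 1.60, adjusted p = 0.246). Control replicate 3 overlapped the U7 ASO libraries, and without it the log2 fold change was 3.26 (adjusted p = 0.00523). tRNA-Ser-AGY had 20, 30 and 10 reads under the control ASO and 81, 68 and 50 under the U7 ASO, with no overlap (log2 fold change 1.40, adjusted p = 0.202). tRNA-Ala-GCY had 22, 8 and 2 reads under the control ASO and 32, 35 and 55 under the U7 ASO (log2 fold change 1.53, adjusted p = 0.351). tRNA-Gln-CAA, the last of the 8 most abundant names to be described, had 44, 12 and 53 reads under the control ASO and 88, 57 and 98 under the U7 ASO (log2 fold change 0.84, adjusted p = 0.440).

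Methionine tRNAs have separate names for the initiator and the elongator, and these were set side by side after their values were seen. The initiator name tRNA-Met-i had 24, 28 and 18 reads under the control ASO and 29, 48 and 126 under the U7 ASO. U7 ASO replicate 3 was highest, with 126 of the 203 reads of its group (log2 fold change 1.10, adjusted p = 0.341). tRNA-Met had 6, 13 and 2 reads under the control ASO and 31, 18 and 31 under the U7 ASO, with no overlap (log2 fold change 1.56, adjusted p = 0.429). tRNA-Met_ had 2, 2 and 20 reads under the control ASO and 14, 10 and 47 under the U7 ASO, and control replicate 3 lay among them (adjusted p = 0.638).

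Of the other 14 tested names 0 passed, with adjusted p-values of 0.351 to 0.968. Of these, 13 had a log2 fold change above 0, from 0.13 for tRNA-Pro-CCG to 1.35 for tRNA-Tyr-TAC. tRNA-Tyr-TAC had 16, 6 and 16 reads under the control ASO and 22, 32 and 74 under the U7 ASO, and the groups did not overlap. tRNA-Leu-CTY, the exception, had 30, 10 and 27 reads under the control ASO and 18, 13 and 14 under the U7 ASO (log2 fold change −0.88, adjusted p = 0.653). The second lysine name, tRNA-Lys-AAA, was among the 13. It had 8, 35 and 27 reads under the control ASO and 57, 19 and 30 under the U7 ASO (log2 fold change 0.32, adjusted p = 0.877).

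The 25 names that were not tested held 2 to 73 reads each over the 6 libraries, 643 in all. Of these, 19 had a higher mean CPM under the U7 ASO. Names read in a single group fall on that side by construction, and the share over all untested repeat names was not computed. The following were chosen after their values were seen. tRNA-Arg-AGA was read in the U7 ASO libraries only, with 4, 9 and 4 reads. tRNA-Leu-CTA was read in controls only, with 14, 0 and 6 reads at its single listed locus. tRNA-Gly-GGY had 10, 4 and 15 reads under the control ASO and 7, 0 and 2 under the U7 ASO.

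Summed per amino acid, 16 of 20 sums passed the filter, 1 rose and 0 fell. Of all rows of that table, 1.53% rose and 0.991% fell. Glutamate was the sum that rose, from 20.5 ± 1.95 to 53.4 ± 16.5 CPM. Its log2 fold change was 1.38 with a standard error of 0.36 (adjusted p = 0.0493). It lost its call without each of the 6 libraries in turn (adjusted p from 0.0727 to 0.173) and with limma-voom (adjusted p = 0.0753). Without the locus tRNA-Glu-GAG__dup1_463974 its log2 fold change was 0.06 (adjusted p = 0.986).

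For 7 of the 16 amino acids the 95% interval of the log2 fold change lay above 0, against 7.2% of all rows. Besides glutamate these were cysteine (0.91, adjusted p = 0.102), threonine (1.65, adjusted p = 0.103), methionine (1.23, adjusted p = 0.128), isoleucine (0.51, adjusted p = 0.243), serine (0.97, adjusted p = 0.253) and alanine (0.92, adjusted p = 0.275). The groups did not overlap, with the U7 ASO libraries higher, for glutamate, cysteine, threonine, methionine, isoleucine and tyrosine, 6 of 16 sums against 10.1% of all rows. For 0 of 16 were the U7 ASO libraries all below the controls, against 9.82%. Isoleucine, one of the sums without overlap, was at 156 ± 13.4 CPM under the control ASO and 222 ± 4.06 under the U7 ASO. Threonine passed without control replicate 3 (log2 fold change 2.55, adjusted p = 0.00460), with DESeq2 (adjusted p = 0.0477) and without a count filter (adjusted p = 0.0281).

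Tyrosine (1.36), arginine (0.84), glutamine (0.53), proline (0.49), valine (0.31) and leucine (0.10) had positive log2 fold changes whose 95% intervals held 0. Lysine (−0.45), glycine (−0.08) and asparagine (−0.01) had negative ones, and asparagine was positive, at 0.039, with library totals alone. The 4 amino acids that were not tested were phenylalanine, histidine, tryptophan and aspartate. They had 20, 14, 6 and 3 reads over the controls and 32, 24, 10 and 12 over the U7 ASO libraries.

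**Figure D4:**
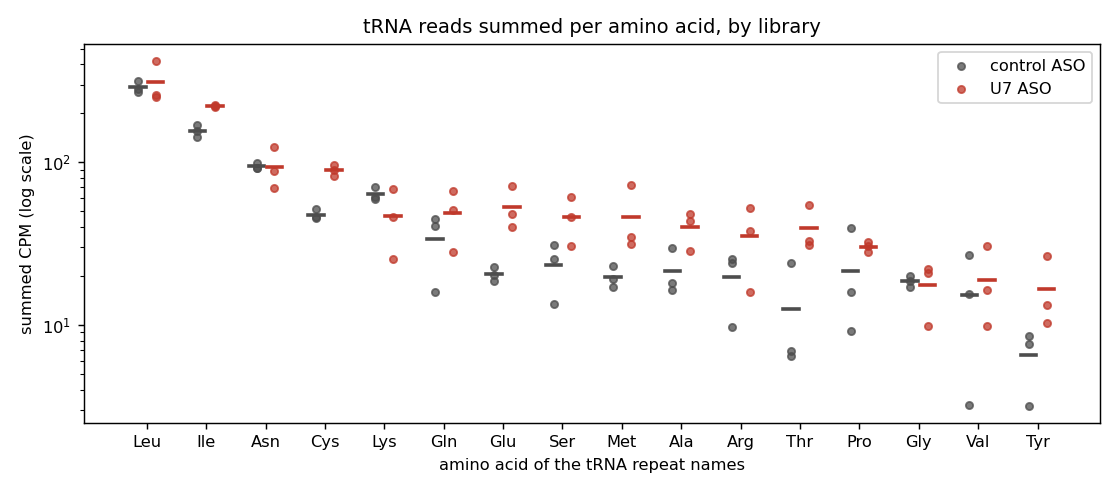
Reads of the tRNA repeat names summed per amino acid, in CPM on a log axis, for the 16 tested amino acids in order of mean level (points, single libraries; short lines, group means; grey, control ASO; red, U7 ASO). The groups do not overlap for Ile, Cys, Glu, Met, Thr and Tyr, and they overlap for all the other sums.

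Over the 32 tested tRNA loci the log2 fold change was above 0 in 26, with a median of 0.78. Over all tested loci it was above 0 in 52.7%, with a median of 0.06. Without a count filter the median was 1.47 over the 296 tRNA loci and 1.52 over all 433837 loci. The tRNA median was thus not above that of the whole table in that fit. As with the names, the filter admits a thin locus more readily through the group where it is high. The counts in this paragraph therefore describe tested loci only, and the untested loci held 24.3% of the tRNA reads. The U7 ASO libraries were all above the controls at 8 tRNA loci, against 12.2% of all loci, and all below at 1, the leading lysine locus, against 8.36%. At the 3 most abundant loci the log2 fold change was 0.34 for tRNA-Leu-TTA_1899657 (adjusted p = 0.806), 0.53 for tRNA-Ile-ATT_dup13_1900708 (adjusted p = 0.535) and −0.14 for tRNA-Asn-AAC_dup18_252587 (adjusted p = 0.965). The 95% interval lay above 0 at 6 of the 32, against 8.21% of all loci. Besides the glutamate and cysteine loci that rose, 4 loci had such an interval and did not pass; they are named here after their values were seen. tRNA-Met-i_dup3_1899826, of the initiator name, had 0, 8 and 10 reads under the control ASO and 26, 32 and 88 under the U7 ASO (adjusted p = 0.109). tRNA-Ser-AGY_dup1_1899334 had 4, 0 and 0 reads under the control ASO and 35, 16 and 30 under the U7 ASO (adjusted p = 0.0944). In neither locus did the groups overlap. The others were tRNA-Ile-ATT_dup11_1899800 (adjusted p = 0.406) and tRNA-Thr-ACY_dup1_4629544 (adjusted p = 0.375), the latter with overlapping groups.

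The tRNA loci were not spread evenly over the running numbers of the tables. Between 1897776 and 1903383 lay 73 tRNA loci of 32 names and 15 amino acids, with no gap above 1000 running numbers, and they held 55.3% of all tRNA reads. This set and the other sets below were picked out after their values were seen. Only sets of at least 8 tRNA loci were kept, and smaller ones are not described. It includes the leading leucine and isoleucine loci. It had 492 ± 32.5 CPM under the control ASO and 634 ± 63.7 CPM under the U7 ASO, a ratio of 1.29, and took 55.5% to 57.5% of the tRNA reads of a control library and 51.5% to 58.1% of a U7 ASO library. A set of 17 loci between 2408125 and 2408426 held only cysteine loci, among them tRNA-Cys-TGY_dup31_2408272, and went from 38.6 ± 1.97 to 80.1 ± 12.5 CPM. Its other 16 loci had 63, 42 and 57 reads under the control ASO and 49, 84 and 143 under the U7 ASO, groups that overlap. A set of 9 loci between 1848344 and 1848490, with the leading lysine locus, was at 43.4 ± 14.2 and 20.0 ± 7.76 CPM. The remaining 4 sets had ratios of 0.879, 1.62, 1.76 and 2.71, the last between 4629383 and 4629664 with the leading threonine locus. Of the 7 sets 5 had a ratio above 1 and 2 below, and the ratios were not tested.

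Other small RNAs gave 2 calls, both lower. Over all tested repeat names 1.52% rose and 1.03% fell, with a median log2 fold change of −0.01, and the lists below are set beside these values. Of 9 names of RNA polymerase III products other than tRNA, 0 rose and 0 fell, 4 had a log2 fold change above 0 and 5 below, and the median was −0.22. Among them 5S ribosomal RNA had 157 ± 35.3 CPM in the control libraries and 246 ± 145 CPM in the U7 ASO libraries (adjusted p = 0.349), with U7 ASO replicate 1 apart at 413 CPM. The Y RNA HY3, a component of Ro particles, had 1241 ± 120 CPM in the control libraries and 749 ± 219 CPM in the U7 ASO libraries (adjusted p = 0.0582). 7SK, which holds back the elongation factor P-TEFb, had a log2 fold change of −0.22 (adjusted p = 0.263). These names did not pass and were picked after their values were seen. The others of the list below 0 were HY5 (−0.96), BC200 (−0.63) and HY1 (−0.47, adjusted p = 0.214). Those above 0 besides 5S were HY4 (0.24), U6 (0.08) and 7SLRNA (0.07). Of 10 tested names of spliceosomal and small nucleolar RNAs made by RNA polymerase II, 0 rose and 2 fell, with a median of −0.17. These were the spliceosomal RNAs U2 (51.9 ± 6.35 to 20.1 ± 0.559 CPM, adjusted p = 0.0362) and U4 (277 ± 24.8 to 160 ± 11.5 CPM, adjusted p = 0.0454). Of 8 tested short interspersed elements that descend from tRNAs, among them MIR and MIRb, 0 rose and 0 fell, and their median log2 fold change was 0.03. The difference between the tRNA names and these lists was not tested.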

How the data were processed

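Per the labels' protocols, total RNA of HEK293T cells was depleted of ribosomal RNA and made into total RNA libraries. The authors deposited raw read counts per repeat locus, 1 table per library. The submitters' processing notes list STAR 2.5.3a, featureCounts 1.5.0-p1 (Subread), FastQC 0.11.5 and the build GRCh38. No source used here gives the repeat annotation or the settings for strand, multiply mapped reads and pairs. Reads of a tRNA and of a transcript crossing its locus cannot be told apart.

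Repeat names were read from the locus identifiers, and counts were summed per name and per amino acid. Every table was fitted whole with edgeR 4.0.16 (R 4.3.3; quasi-likelihood test, two-sided, TMM, filterByExpr with minimum count 10 and total 15), with Benjamini-Hochberg adjustment over all features and a threshold of 0.05. Standard errors came from the fold change and its F statistic. Alternatives used DESeq2 1.42.0, limma 3.58.1 (voom), other scalings, no filter, a replicate block and each library left out. Replicates of a group differed beyond sampling noise (chi-square at least 12.3 per degree of freedom). On simulated counts with 200 features changed 4-fold, the fit recovered 69.5% among 2236 repeat names and 16.5% among 14380 loci.

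The rule named every tRNA name and locus past the threshold, the 8 names and 5 loci with the highest mean CPM and the 5 names with the largest fold change that did not pass. Members and lists were chosen with earlier results of these data known.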

Additional observations from a re-analysis of the deposited data

How the results depend on the processing

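The higher tRNA share held in every setting run. The difference in share was 0.0325 percentage points, 0.0221 with tested loci only, 0.0179 without the 10 loci with the most reads, and 0.0273 to 0.0387 with 1 library left out. The filter picked the tested loci from these same data and admits thin ones more readily through the group where they are high. The value with tested loci only is therefore no separate support. At equal reads the difference in loci with a read was 36.8, against 47.7, and 43.0 to 52.0 with 1 library left out. Calls moved more: 1 tRNA name rose in the main setting, 2 with DESeq2 and 0 to 2 with 1 library left out. Without leading loci 16 tRNA names were tested and 0 rose. The name called in the main setting, tRNA-Glu-GAG_, was too thin to be among them, so this 0 does not bear on its call. Of amino acid sums 1 rose, with 3 by DESeq2, 0 by limma-voom, 2 without a filter, 0 without leading loci and 0 to 1 with 1 library left out. Of tRNA loci 2 rose, with 4 by DESeq2, 0 without a filter and 0 to 2 with 1 library left out. With a replicate block 2 names (tRNA-Cys-TGY, adjusted p = 0.0467, and tRNA-Glu-GAG_), 3 sums (cysteine, glutamate and threonine) and 3 loci passed; same-numbered libraries did not pair, with correlations of their deviations from the group means of 0.12, −0.03 and 0.12. Of 480 recomputed values of 34 names, sums and loci, 427 kept direction and call, 23 lost a call, 9 gained one and 21 changed sign, 0 of these called. Without leading loci the log2 fold change became 0.35 for tRNA-Asn-AAC and for asparagine, 0.040 for tRNA-Lys-AAG, 0.17 for lysine, −0.20 for leucine, 0.42 for glycine and −0.55 for valine. With library totals alone it was 0.039 for tRNA-Asn-AAC and for asparagine. With 1 library left out it ranged from −0.15 to 0.25 for tRNA-Leu-TTA, −0.17 to 0.23 for leucine, −0.27 to 0.17 for tRNA-Asn-AAC, −0.26 to 0.17 for asparagine, −0.27 to 0.21 for glycine, −0.21 to 1.01 for valine and −0.73 to 0.30 for tRNA-Asn-AAC_dup18_252587. The cause was not tested. Upper-quartile scaling moved the median log2 fold change of all loci from 0.06 to −0.09. Few simulated 4-fold changes were recovered among loci (16.5%), so an uncalled locus does not show that it was unchanged. Over all repeat names 57 were called, against 89 with DESeq2, 133 with the block, 122 without U7 ASO replicate 1, 38 without U7 ASO replicate 2 and 33 without U7 ASO replicate 3.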
